A study of Rattus norvegicus with 12 samples.

Results

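Hippocampal RNA of 6 pools from enriched rats was set against that of 6 pools from isolated rats, with the drug treatment held as a second factor. All 12 arrays of the study entered, so the comparison covers 12 of 12 samples, and no measured value was used to choose them. Rats were treated on postnatal day 20 with PBS, the buffered saline vehicle, or with KA. The labels do not spell out KA, and it is read here as kainic acid, which activates glutamate receptors and provokes seizures, because the series concerns seizures. The isolated groups, PBS_isolated and KA_isolated, were then kept 1 rat to a cage for 10 days before the tissue was taken. The enriched groups, PBS_enriched and KA_enriched, were housed in large cages with 8 rats each, and the labels give no duration for them. Each group had 3 pools of hippocampi from 3 to 4 animals, and the labels give neither strain nor sex nor the cage an animal came from. The n below therefore counts pools, and p-values reflect only how pools differed. Cage effects and housing effects cannot be told apart. Since an ordinarily housed group was not part of the design, neither can enrichment and isolation.

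Enriched housing offers rodents company, space and objects to explore, while isolation removes social contact. In the hippocampus, a region needed for spatial memory, immediate early genes are switched on within minutes of neuronal firing without new protein synthesis. Their promoters carry CArG boxes, bound by serum response factor, and cAMP response elements (CRE), bound by CREB, through which calcium entry and growth factor signals act. Slower genes, such as those for neurotrophins and neuropeptides, follow the activity of the same cells.

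Of the genes that passed the test in this comparison or led its immediate early genes, the RefSeq promoter table (rat assembly GRCr8) held Egr1, Egr4 and Anp32a. Arc is named only. The 250 bases before each start are printed 5′ to 3′ on the gene's strand, to set the promoters of 2 activity-regulated genes beside that of the gene with the lowest adjusted p. Capitals mark CArG boxes and the CRE core TGACG on either strand, read as CGTCA on the reverse one.

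Egr1, chr18:26736828-26737077, + strand: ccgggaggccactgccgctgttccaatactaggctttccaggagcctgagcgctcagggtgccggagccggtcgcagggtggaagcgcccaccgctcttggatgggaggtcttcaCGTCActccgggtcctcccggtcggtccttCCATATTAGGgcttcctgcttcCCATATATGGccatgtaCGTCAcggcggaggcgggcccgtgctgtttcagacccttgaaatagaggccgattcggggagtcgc

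Egr4, chr4:119607818-119608067, - strand: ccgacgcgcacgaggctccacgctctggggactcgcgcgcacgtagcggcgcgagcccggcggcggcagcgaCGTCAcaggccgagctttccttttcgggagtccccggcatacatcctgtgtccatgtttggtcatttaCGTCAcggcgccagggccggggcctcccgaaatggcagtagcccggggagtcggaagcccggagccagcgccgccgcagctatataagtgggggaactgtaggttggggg

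Anp32a, chr8:71724328-71724577, + strand: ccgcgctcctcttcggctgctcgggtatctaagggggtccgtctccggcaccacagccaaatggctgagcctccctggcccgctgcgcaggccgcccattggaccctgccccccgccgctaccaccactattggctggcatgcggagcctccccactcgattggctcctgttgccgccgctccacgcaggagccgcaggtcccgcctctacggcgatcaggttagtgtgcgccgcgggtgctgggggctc

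The Egr1 window held 2 CArG boxes and 2 CRE cores, and the Egr4 window held 2 CRE cores. The Anp32a window held neither motif. Its G and C content of 70.0% was close to that of Egr4 at 68.0%, and Egr1 stood at 63.2%. These are matches of letters in a short window, not measured binding.

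Over both treatments, 2 genes differed by housing after adjustment. Egr1, an immediate early transcription factor, rose in enriched rats, and Anp32a, a nuclear phosphoprotein known as an inhibitor of protein phosphatase 2A and of histone acetylation, fell. They were 2 of 9520 probe sets tested (0.021%; limma, adjusted p under 0.05), 1 higher (0.0105%) and 1 lower (0.0105%). An unadjusted p under 0.05 was reached by 537 probe sets (5.64%), 315 higher in enriched rats (3.31%) and 222 lower (2.33%). By sign alone, 4857 probe sets were higher (51%) and 4663 lower (49%).

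Anp32a had signals of 385.5, 331.2 and 458.6 in the PBS_isolated pools and 167.5, 162.2 and 132.5 in the KA_isolated pools. In PBS_enriched pools it read 126.7, 132.4 and 158.7, and in KA_enriched pools 115.7, 83.7 and 98.4. The 3 PBS_isolated pools stood far above the other 9. Within each treatment the housings did not overlap, but across treatments PBS_enriched replicate 3 lay above KA_isolated replicate 3. On the log2(signal + 17) scale used throughout, the mean housing difference was -0.97 (SE 0.0948; limma adjusted p = 0.00124), or 1.96-fold higher in isolated rats on that scale, which understates the folds of dim genes. The difference was -1.38 (SE 0.134) after PBS and -0.56 (SE 0.134) after KA. The gap between these 2 values was 0.82 (SE 0.190; limma interaction, adjusted p = 0.765) and did not pass.

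Egr1 ran from 377.6 to 474.6 in the isolated pools, with a median of 414.5. Its enriched pools ran from 540.0 to 664.0, with a median of 566.4, so the housings did not overlap. It differed by a log2 of 0.45 (SE 0.0648; limma adjusted p = 0.042), or 1.37-fold. This call depended on the setting: it passed in 6 of 24 alternatives, and it was lost when any single pool other than PBS_enriched replicate 1 was left out. Arc, the synaptic regulator of AMPA receptor uptake, had a log2 difference of 0.58 (SE 0.0934; limma adjusted p = 0.105) and did not pass. The difference was 0.33 after PBS and 0.82 after KA. Egr4, another zinc finger factor of the Egr family, had 0.56 (SE 0.0946; limma adjusted p = 0.112). A second Egr4 probe set, dim and not tested, stood at -0.13. Fos lay below the filter on low values and was not tested. One of its probe sets read 23.6 to 41.6 in isolated pools and 36.7 to 73.6 in enriched pools, where PBS_enriched replicate 1 was the low one.

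**Figure D1:**
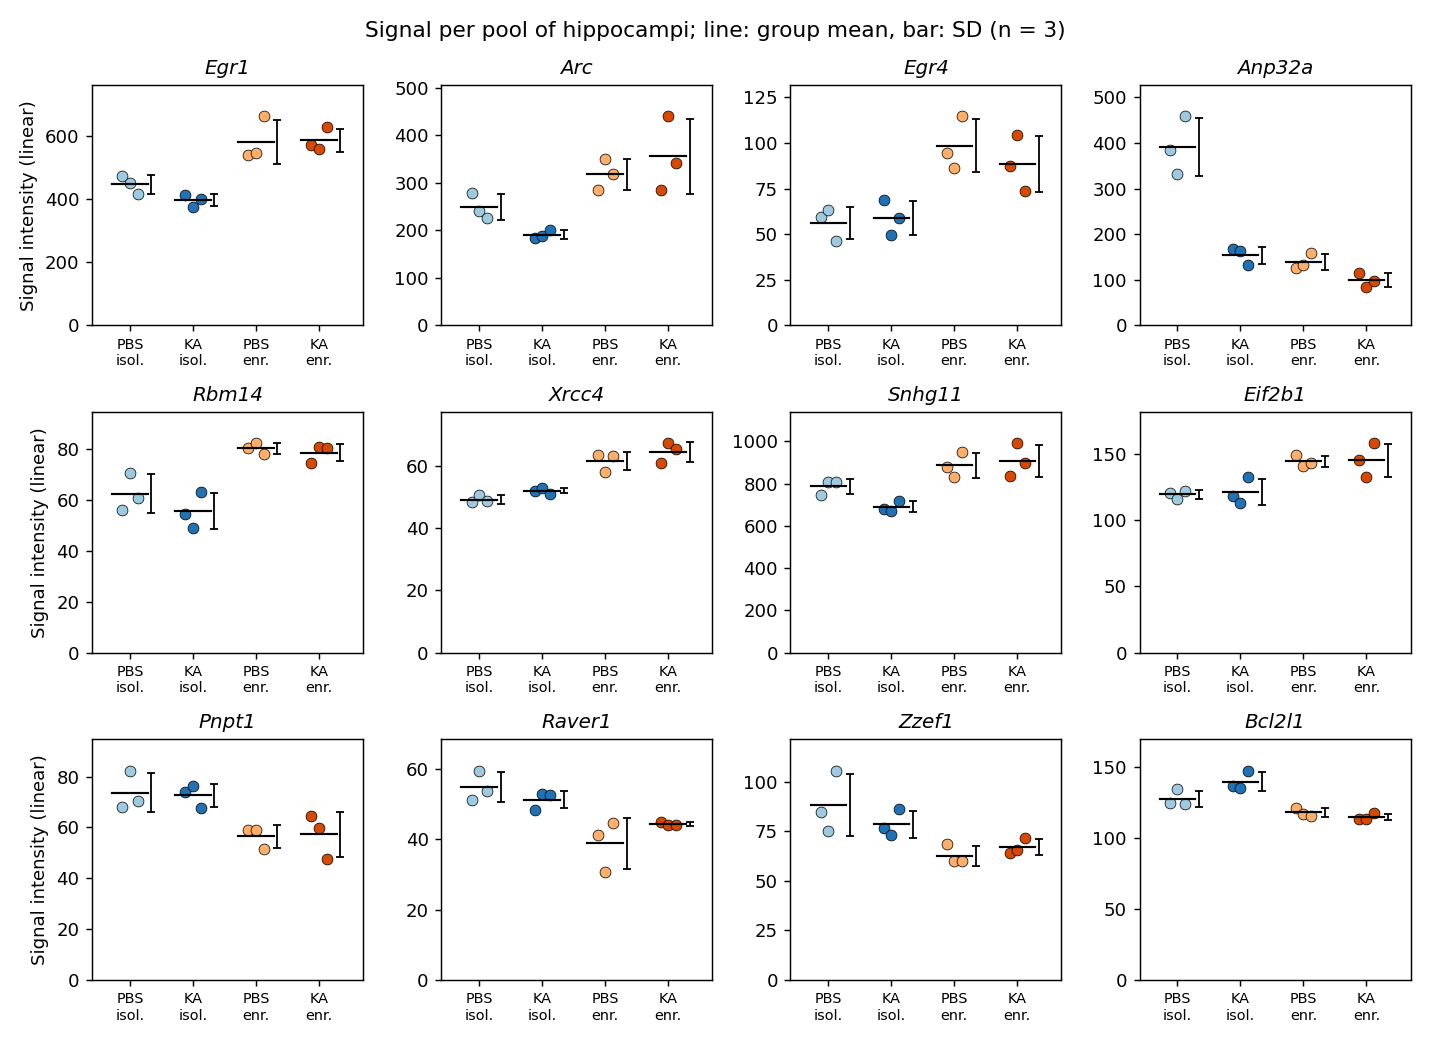
Linear signal intensity per pool for 12 genes, 1 point per pool, with the group mean as a line and the SD (n = 3) as a bar. PBS and KA groups of isolated rats are blue and those of enriched rats orange. In Anp32a the PBS_isolated pools lie at 331.2 to 458.6, apart from the other groups, while Egr1 separates by housing in both treatments.

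Probe sets were then taken in which all 6 enriched pools lay on one side of all 6 isolated pools. There were 29 of 9520 (0.305%), 18 higher in enriched rats (0.189%) and 11 lower (0.116%). When each array was brought to the same median the split turned to 11 higher and 17 lower, with 21 of the 29 among them. Quantile normalization gave 20 higher and 10 lower, with 23 of the 29 among them. Of the 29, 26 had 1 gene symbol, 3 had no name in the annotation, and 3 were the immediate early genes Egr1, Arc and Egr4. That left 23 named genes beyond the immediate early ones, 12 higher and 11 lower. Only Egr1 passed among the 29, and the other 28 had adjusted p-values from 0.105 to 0.875. The absolute log2 differences ran from 0.10 to 0.58 with a median of 0.21. All 29 had the same sign after PBS and after KA, which the choice itself fixes.

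**Figure D2:**
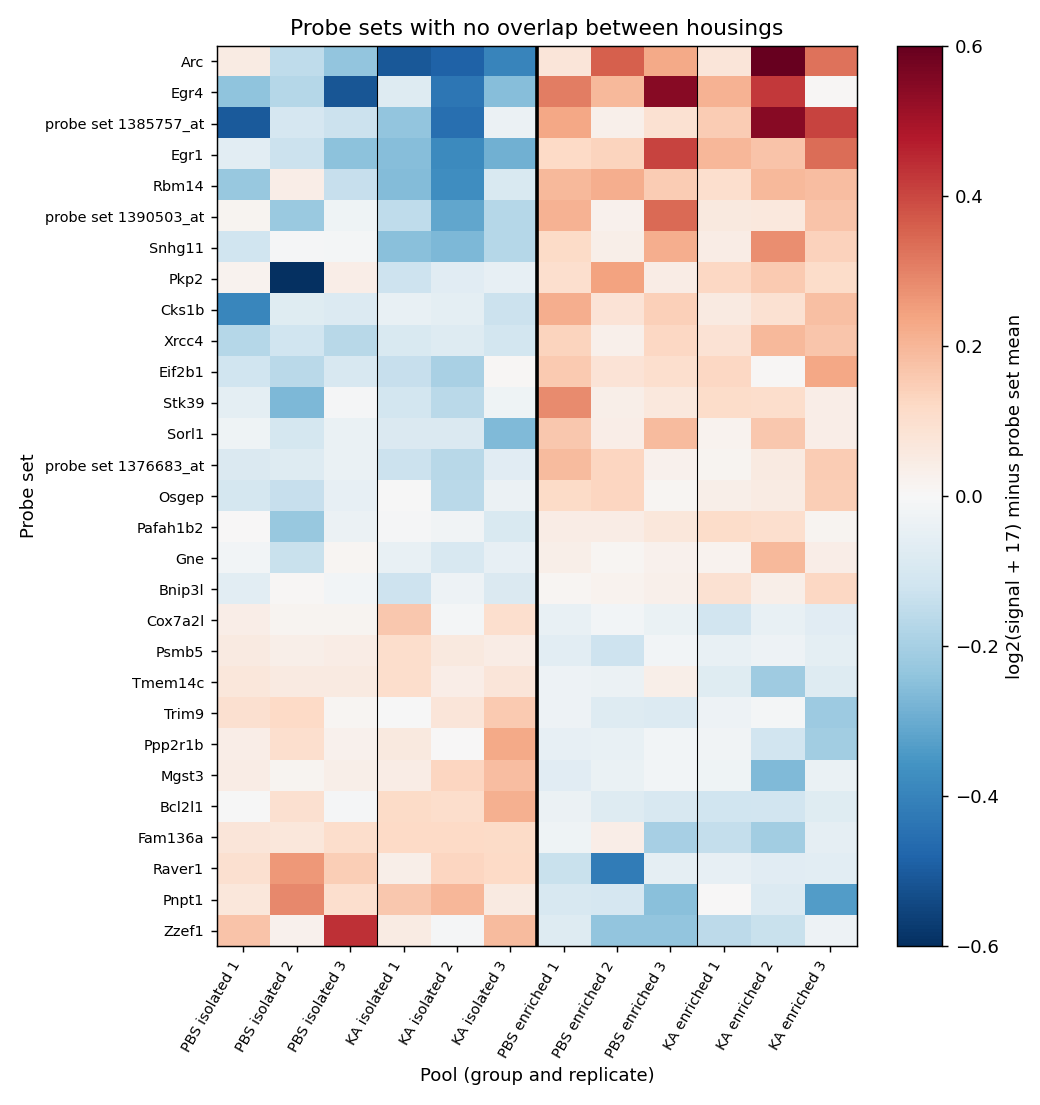
Heat map of the 29 probe sets without overlap (vertical) in the 12 pools (horizontal), coloured by log2(signal + 17) minus the probe set's mean, red above and blue below. The heavy line parts the 6 isolated from the 6 enriched pools. Single pools stand out, such as PBS_isolated replicate 2 in Pkp2 and PBS_enriched replicate 2 in Raver1.

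Rbm14, an RNA-binding transcriptional coactivator found in paraspeckles, had signals of 56.1, 70.85 and 60.8 in PBS_isolated and 54.5, 49.1 and 63.3 in KA_isolated. Its enriched pools read 80.7, 82.3 and 78.1 after PBS and 74.8, 80.9 and 80.4 after KA. The enriched pools were the tighter set, spanning 74.8 to 82.3. In log2 units the difference was 0.35 (SE 0.0627; limma adjusted p = 0.174), 1.27-fold. Snhg11, a long noncoding RNA that hosts a small nucleolar RNA, ran from 669.9 to 809.0 in isolated pools, with a median of 732.4, and from 832.0 to 989.6 in enriched pools, with a median of 888.1. Its log2 difference was 0.28 (SE 0.0575; limma adjusted p = 0.281). By treatment that was 0.17 after PBS and 0.39 after KA. Eif2b1 encodes a subunit of the exchange factor that recharges the translation factor eIF2. It ran from 113.1 to 132.5 in isolated pools and from 132.8 to 158.0 in enriched pools, so the highest isolated pool nearly met the lowest enriched one. The log2 difference was 0.24 (SE 0.0559; limma adjusted p = 0.516). Osgep, the catalytic subunit of the complex that adds a threonylcarbamoyl group to tRNA, ran from 52.1 to 60.3 in isolated and from 61.0 to 68.7 in enriched pools, a log2 difference of 0.16.

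Xrcc4 partners DNA ligase IV in joining broken DNA ends. Its signals in isolated pools were 48.25, 50.7 and 48.6 after PBS and 52.0, 52.8 and 51.1 after KA. Enriched pools read 63.7, 58.2 and 63.0 after PBS and 61.0, 67.2 and 65.4 after KA. The isolated pools lay close together, between 48.25 and 52.8. It differed by a log2 of 0.24 (SE 0.0467; limma adjusted p = 0.215), nearly equal after PBS (0.25) and KA (0.24). Cks1b, a small subunit of cyclin-dependent kinases, ran from 47.8 to 65.5 in isolated and from 71.2 to 81.9 in enriched pools, with 0.26 (SE 0.0636; limma adjusted p = 0.55). One pool, PBS_isolated replicate 1, lay below the other isolated pools, which began at 60.8. A second Cks1b probe set, dim and not tested, stood at -0.05.

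Sorl1 encodes a sorting receptor that steers the amyloid precursor protein between compartments. It ran from 319.4 to 379.6 in isolated pools, with a median of 363.6, and from 392.6 to 443.7 in enriched pools, with a median of 417.2. In log2 units the difference was 0.20 (SE 0.0554; limma adjusted p = 0.683). Its 3 other tested probe sets were also higher in enriched rats, by 0.22, 0.16 and 0.22 (limma adjusted p = 0.832, 0.875 and 0.832). Each had overlap, and probe sets of a gene can share probes. Stk39, the SPAK kinase that phosphorylates cation-chloride cotransporters, ran from 106.9 to 131.6 and from 136.4 to 164.8, a log2 difference of 0.21 (SE 0.0635). Its other probe set, also tested and the brighter of the 2, stood at -0.02 (SE 0.0486), with mean signals of 294.3 in isolated and 289.0 in enriched pools. The gene lists read Stk39 by that brighter probe set. Pkp2, a plakophilin of desmosomes, had a log2 difference of 0.26 (SE 0.0962). Isolated pools reached 150.6 and enriched pools began at 150.8, and PBS_isolated replicate 2 was low at 90.4. Without that pool the difference was 0.15.

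The remaining 3 named higher genes had the smallest differences and were named after their values were seen. Pafah1b2, a catalytic subunit of the acetylhydrolase for platelet-activating factor, had a log2 difference of 0.13, Bnip3l, a mitophagy receptor, 0.10, and Gne, the first enzyme of sialic acid synthesis, 0.11. Second probe sets of Pafah1b2 and Bnip3l gave -0.06 and 0.01. The 3 unnamed probe sets had log2 differences of 0.49, 0.29 and 0.19. The one at 0.29 lay at the edge of the filter on low values and reached it through its enriched pools. Its mean log2 was 5.87 in isolated and 6.16 in enriched pools, and the lowest mean tested was 5.997.

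Of the lower genes, Pnpt1, the mitochondrial polynucleotide phosphorylase, ran from 67.5 to 82.3 in isolated pools, with a median of 72.0, and from 47.4 to 64.4 in enriched pools, with a median of 59.0. The log2 difference was -0.29 (SE 0.0692; limma adjusted p = 0.516), alike after PBS (-0.30) and KA (-0.28). Raver1, a partner of the splicing regulator PTB, ran from 48.4 to 59.6 in isolated and from 30.7 to 44.9 in enriched pools. Its difference was -0.26 (SE 0.0650; limma adjusted p = 0.55), and PBS_enriched replicate 2 at 30.7 lay below the other enriched pools. Without that pool the Raver1 difference was -0.21. Raver1 lay at the edge of the filter on low values. Its mean log2 was 6.13 in isolated and 5.87 in enriched pools, and the lowest mean tested was 5.997. Zzef1, a large protein with ZZ-type zinc fingers and an EF-hand, ran from 72.9 to 105.5 and from 59.7 to 71.4, a difference of -0.29 (SE 0.0722). Its highest isolated pool, PBS_isolated replicate 3, was well above the isolated median of 80.7. A second Zzef1 probe set, dim and not tested, stood at 0.34.

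Bcl2l1 encodes the survival protein Bcl-xL, which blocks cell death at mitochondria. It ran from 123.6 to 147.2 in isolated pools, with a median of 134.6, and from 113.2 to 121.1 in enriched pools, with a median of 116.1. It differed by a log2 of -0.17 (SE 0.0474; limma adjusted p = 0.683), which is -0.10 after PBS and -0.25 after KA. Other probe sets of Bcl2l1, below the filter and not tested, stood at 0.11 and -0.03. Fam136a had -0.20 (SE 0.0540), with isolated pools close together at 104.0 to 108.3 and enriched pools spread over 82.8 to 101.6. Ppp2r1b, a scaffold subunit of protein phosphatase 2A, had -0.15 (SE 0.0553). Trim9, a brain-enriched ubiquitin ligase of axons, also had -0.15 (SE 0.0550), with isolated pools from 208.5 and enriched pools up to 207.5.

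The other 4 lower genes were metabolic, mitochondrial or proteolytic. Mgst3, a microsomal glutathione transferase, had a median of 1364 in isolated and 1284 in enriched pools, a log2 difference of -0.15 (SE 0.0549). For Psmb5, the chymotrypsin-like catalytic subunit of the proteasome, the medians were 1017 and 946.3 (-0.11, SE 0.0450). Cox7a2l, which joins respiratory complexes into supercomplexes, had medians of 845.5 and 801.8 (-0.11, SE 0.0477). Tmem14c, a mitochondrial membrane protein needed for haem synthesis in red cell precursors, had 215.9 and 198.4 (-0.13, SE 0.0476). None of the 4 passed, with adjusted limma p-values from 0.832 to 0.852.

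At the edge of the rule the separation was narrow. The 6 isolated pools of Gne ended at 127.5 and the enriched pools began at 127.6, so Gne was inside. Cyb561, an electron-transfer protein of secretory vesicles, had isolated pools down to 177.9 and enriched pools up to 177.9 and fell just outside, with a log2 difference of -0.17. Fbxl20, an F-box protein that regulates synaptic release, was also outside at 0.40, with isolated pools up to 68.7 and enriched pools from 68.7. One pool, PBS_isolated replicate 3, read 21.9 against 57.5 to 68.7 in the other isolated pools, and without it the Fbxl20 difference was 0.21. In all, 8 of the named genes had 13 other probe sets on the array, and 7 of those shared the sign. Sorl1 held 5 of these 7, and for the 7 other genes 2 of 8 shared it. Of 966 genes with at least 2 tested probe sets, 0 had all of them without overlap.

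The promoters of the 27 named genes without overlap or past the test were searched on both strands, and 24 were in the table. The CRE core TGACG lay in 9 of 24 (37.5%), against 30.5% of the promoters of 5831 tested genes and 19.0% of all 27457. The 9 were Cox7a2l, Egr1, Egr4, Eif2b1, Psmb5, Rbm14, Snhg11, Sorl1 and Zzef1, a mix of higher and lower genes. The full CRE, TGACGTCA, which contains the core, was in 0 of 24, against 2.9% of tested genes. A CArG box lay in Egr1 alone (4.17%, against 1.22% of tested genes), and the EGR motif GCGNGGGCG in Gne alone (4.17%, against 9.93%). No test was run on these shares.

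The 2 treatments share no pool, so the housing difference after PBS can be set beside that after KA. Over 9520 probe sets the sign was the same in 4847 (50.9%), and the correlation across probe sets was 0.0363 (Pearson) and 0.0428 (Spearman). Probe sets share arrays and are not independent, so no p is given. Without immediate early genes and Anp32a the Pearson value was 0.0223 over 9484 probe sets. Of the 100 probe sets of smallest p after PBS, 54 had the same sign after KA, and their median difference went from 0.3065 to 0.0085 in that direction. Of the 100 of smallest p after KA, 55 had the same sign after PBS, and the median went from 0.3682 to 0.0241. After PBS 1 probe set passed (0.0105%; limma), which was Anp32a, and 401 had an unadjusted p under 0.05 (4.21%). After KA 0 passed (0%; limma), 668 had an unadjusted p under 0.05 (7.02%), and the lowest adjusted p was 0.234. The interaction also gave 0 (0%; limma), with 473 at an unadjusted p under 0.05 (4.97%) and a lowest adjusted p of 0.194.

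**Figure D3:**
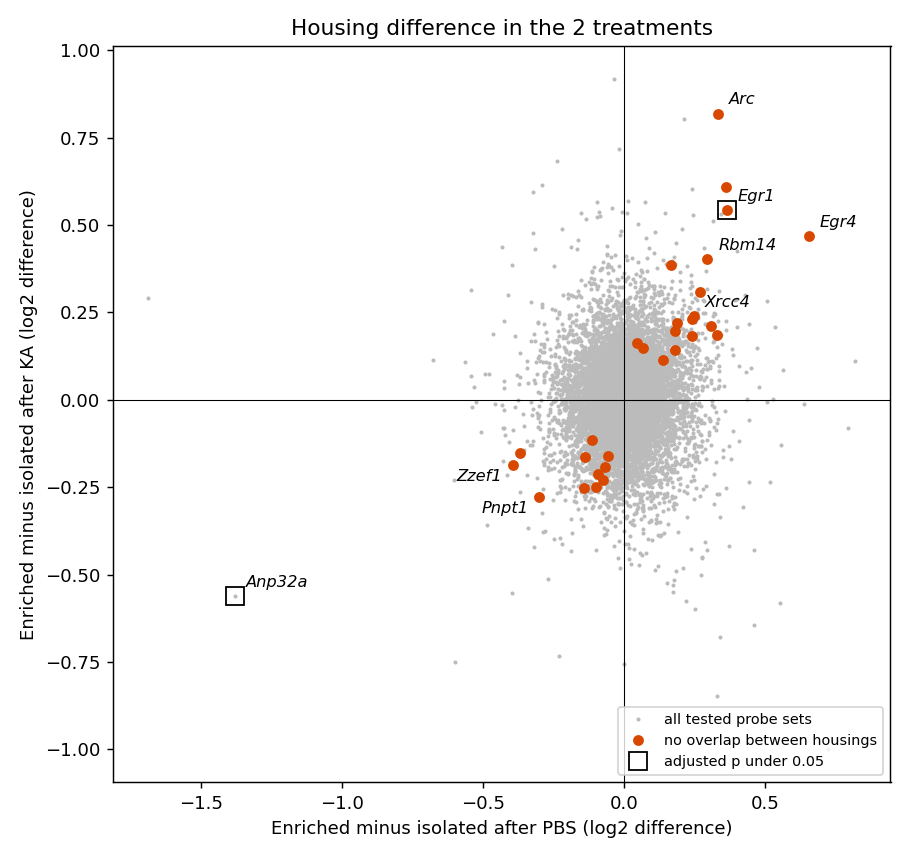
Housing difference in log2(signal + 17) after PBS (horizontal) and after KA (vertical) for 9520 probe sets in grey. The 29 without overlap are orange and the 2 past the adjusted threshold are boxed. The grey cloud is round (Pearson r of 0.0363), and the orange points lie in the 2 quadrants of equal sign by construction.

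Gene lists were read by 1 probe set per gene, 6923 genes in all. Of these, 2 passed (0.0289%; limma), 1 higher (0.0144%) and 1 lower (0.0144%). An unadjusted p under 0.05 was reached by 378 (5.46%), 212 higher (3.06%) and 166 lower (2.4%). No overlap was found in 24 (0.347%), 13 higher (0.188%) and 11 lower (0.159%). The median log2 difference over all genes was 0.0016, with quartiles of -0.0492 and 0.0532, and 50.8% of genes were higher and 49.2% lower. With equal array medians the list median turned below 0 for axon guidance (-0.0071), cAMP and calcium signalling (-0.0129) and neuropeptide genes (-0.0135), and with quantile normalization that of neurogenesis genes turned above 0 (0.0100). Besides Egr1 and Anp32a no member of any list passed, so the genes below are given by value.

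Of 25 immediate early genes measured above the filter, 19 were higher and 6 lower, 8 higher ones had an unadjusted p under 0.05, and the median was 0.0351. The list was known from these samples and is no independent evidence of its direction. Of 12 slower activity-regulated genes, 7 were higher and 5 lower, with a median of 0.0238 (0.0413 after PBS and -0.01 after KA). Bdnf, the neurotrophin of activity-dependent plasticity, had a median of 114.3 in isolated and 131.1 in enriched pools, with overlap. Its log2 difference was 0.16 (SE 0.0624; limma adjusted p = 0.832), 0.26 after PBS and 0.06 after KA. The peptide Npy had 0.15 (SE 0.0614), and somatostatin, Sst, -0.18 (SE 0.0710).

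Among 20 growth factors and receptors, 12 were higher (median -0.0133 after PBS and 0.0464 after KA), led by Ntf3, a neurotrophin, at 0.20 and Pdgfa, a platelet-derived growth factor, at 0.19. Of 15 glucocorticoid-responsive genes 9 were higher, and 0 had an unadjusted p under 0.05. In that list Fkbp5, a chaperone induced by corticosterone, stood at 0.09 (SE 0.102; limma adjusted p = 0.918), with medians of 102.7 and 104.2.

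Of 15 glutamate receptor subunits 10 were higher. Grik4, a kainate receptor subunit, had 0.21 (SE 0.0722), and Grm2, a presynaptic metabotropic receptor, -0.23 (SE 0.111). The value was 0.07 after PBS and 0.35 after KA for Grik4. The list median of 0.0311 stood beside 0.0148 after PBS and -0.0773 after KA. It turned to -0.0222 without KA_enriched replicate 3 and to -0.0387 with the beta-actin ratio as a covariate. GABA genes divided evenly, 6 higher and 6 lower, with Gabra5, a hippocampal GABA-A receptor subunit, at 0.19 and Gad2, a GABA-synthesising enzyme, at 0.19. Slc32a1, of the same list, was lower at -0.12 (SE 0.0695). In Gad2, KA_enriched replicate 3 read 117.8, below the lowest isolated pool at 126.6. Of 22 neuropeptide genes 11 were higher. Cck, the cholecystokinin precursor, ran from 1228 to 1424 in isolated and from 1080 to 1285 in enriched pools, a difference of -0.19 (SE 0.0553; limma adjusted p = 0.733).

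Synaptic genes were spread to both sides. Of 34 vesicle genes 13 were higher and 21 lower, with a median of -0.0244, and Sv2a, the vesicle protein bound by levetiracetam, was at 0.24 (SE 0.0757). Snap91, of the same list, was lower at -0.11 (SE 0.0592). Synj1 was at 0.11 (SE 0.0528), made up of -0.095 after PBS and 0.32 after KA. Of 32 postsynaptic genes 13 were higher and 19 lower. Shank1, a scaffold of the postsynaptic density, stood at -0.27 (SE 0.0994), which was -0.53 after PBS and -0.01 after KA. Shank1 was dim and reached the filter on low values through its isolated pools. Its mean log2 was 6.18 in isolated and 5.92 in enriched pools, and the lowest mean tested was 5.997. Camk2g, a calmodulin-dependent kinase subunit, had 0.16. Of 36 axon guidance genes 21 were higher (median -0.0015 after PBS and 0.0157 after KA). Epha5, an ephrin receptor, had isolated pools from 160.3 to 185.6 and enriched pools from 182.6 to 262.4. Its log2 difference was 0.37 (SE 0.0731; limma adjusted p = 0.251), 1.29-fold, and it kept its sign after PBS (0.43) and KA (0.30).

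Neurogenesis genes divided 12 to 13. Dcx, the microtubule protein of migrating young neurons, had medians of 61.9 in isolated and 53.3 in enriched pools and a log2 difference of -0.20 (SE 0.0811; limma adjusted p = 0.834). Of 40 cAMP and calcium signalling genes 23 were higher (median -0.0024 after PBS and 0.0466 after KA). Creb1, the transcription factor that binds the CRE, had 0.28 (SE 0.0936; limma adjusted p = 0.832), with enriched pools from 101.5 and isolated pools up to 119.1. Pde1b, a calmodulin-dependent phosphodiesterase, had -0.67 (SE 0.237). It was dim, with 16.4 in its lowest enriched pool and 94.9 in its highest isolated one. Pde1b also reached the filter through its isolated pools, with a mean log2 of 6.37 there and 5.69 in enriched pools (lowest mean tested 5.997).

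Of 80 oxidative phosphorylation genes, which make ATP in mitochondria, 54 were lower and 26 higher (32.5%, against 50.8% of all genes), with a median of -0.0247. Of the 80, 4 lower and 1 higher had an unadjusted p under 0.05, and Cox7a2l was the member without overlap. Uqcrq, a subunit of complex III, had -0.21 (SE 0.0844) and Ndufs8, of complex I, -0.18 (SE 0.0705). Of 39 cytosolic ribosomal protein genes 28 were lower, with a median of -0.0316, and 0 had an unadjusted p under 0.05 (limma; 0 passed). Of 39 proteasome genes 25 were lower, with a median of -0.0160, and Psmb5 was the member without overlap. The proteasome median was 0.0104 after PBS and -0.0397 after KA, while those of oxidative phosphorylation (-0.0102 and -0.0389) and the ribosome (-0.0174 and -0.0533) had the same sign in both treatments. All 3 medians over both treatments kept their sign with quantile normalization (-0.0127, -0.0132 and -0.0103). Equal array medians lowered all 3 (-0.0448, -0.0525 and -0.0370). Enriched arrays had the higher medians on average, so that scaling could not turn a sign that was already below 0.

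Of 7 sodium pump and FXYD genes 5 were lower. Fxyd6, a small membrane modulator of the sodium pump, ran from 166.1 to 208.1 in isolated and from 134.4 to 174.4 in enriched pools. Its log2 difference was -0.30 (SE 0.0684; limma adjusted p = 0.463). Of 92 RNA-binding protein genes 50 were higher and 42 lower, 5 and 1 of them at an unadjusted p under 0.05, and Rbm14 (higher) and Raver1 (lower) were its members without overlap. The median of 0.0071 turned to -0.0134 with equal array medians, and it was 0.0130 after PBS and -0.0043 after KA. Of 20 DNA repair genes 16 were higher, with a median of 0.0333. After Xrcc4 came Pms2, of mismatch repair, at 0.15 (SE 0.0573) and Parp1, a sensor of strand breaks, at 0.13 (SE 0.0782).

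Branched-chain amino acid genes divided 10 to 10. Ivd, the dehydrogenase of leucine breakdown, ran from 178.8 to 237.1 in isolated and from 142.5 to 182.4 in enriched pools. Its log2 difference of -0.30 (SE 0.0564; limma adjusted p = 0.215) was made up of -0.51 after PBS and -0.09 after KA. Ppm1k, the phosphatase that activates the branched-chain ketoacid dehydrogenase, had -0.31 (SE 0.114). In the list of Anp32 proteins and phosphatase 2A subunits 14 of 19 were lower. Anp32e, a histone chaperone of the Anp32 family, had medians of 300.8 and 254.8 and a log2 difference of -0.20 (SE 0.0570; limma adjusted p = 0.683), equal after PBS (-0.20) and KA (-0.21). Ppp2r5b, a regulatory subunit of the phosphatase, stood on the other side at 0.27 (SE 0.0890).

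**Figure D4:**
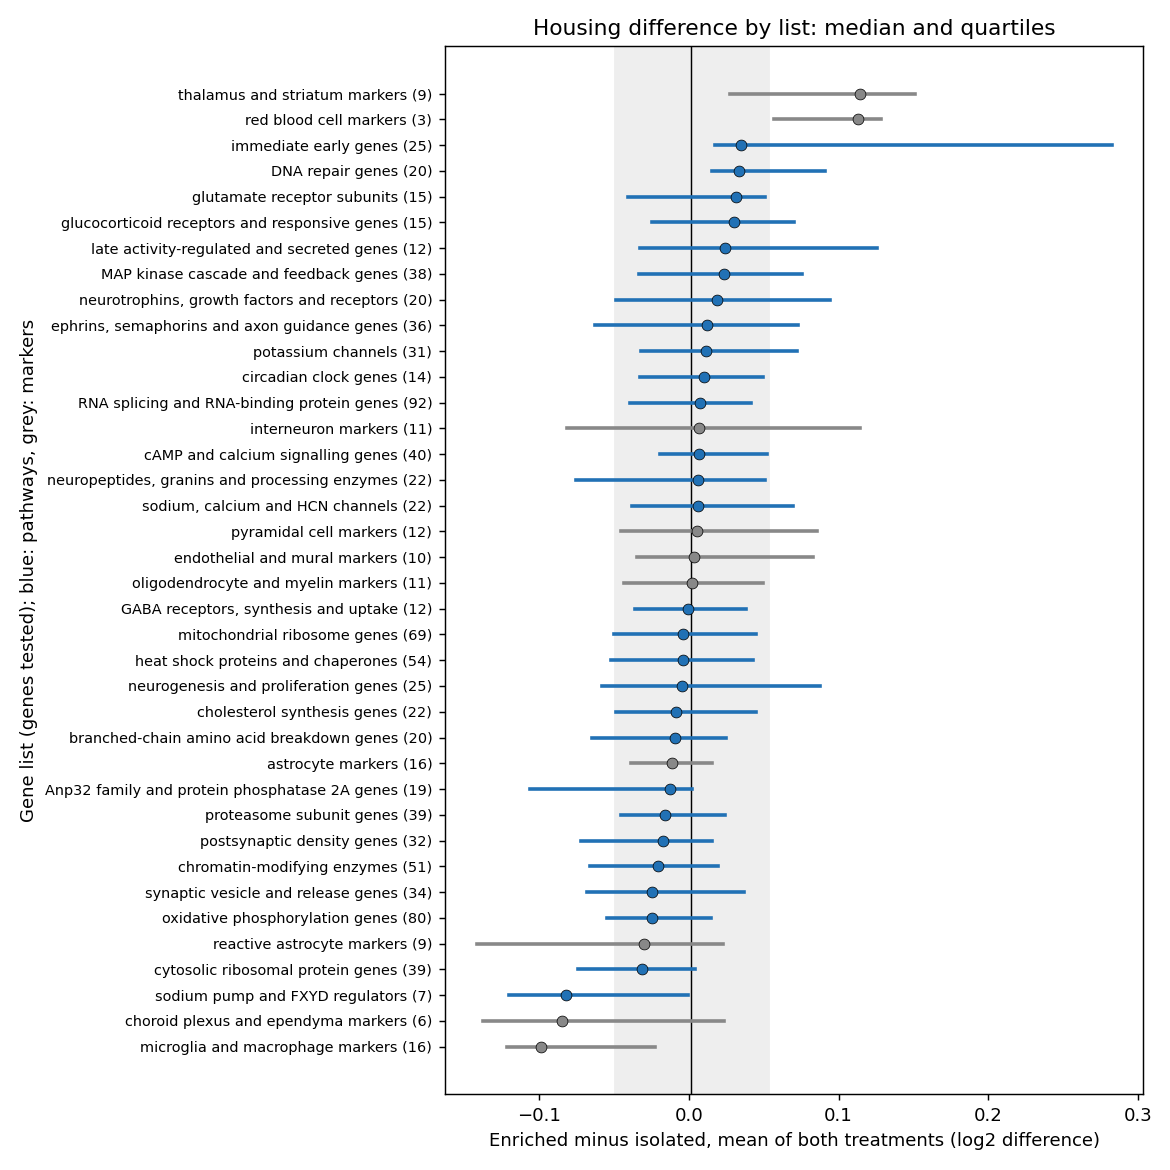
Median (point) and quartiles (line) of the log2 housing difference for 38 gene lists, with pathways in blue, cell and tissue markers in grey, and the number of genes tested in brackets. The grey band and the vertical line give the quartiles and median of all 6923 genes. Markers of thalamus and striatum lie to the right at 0.1145 and those of microglia to the left at -0.0991.

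Markers of other cells and regions were read the same way, and in tissue RNA fewer cells of a type and less RNA per cell cannot be told apart. The 12 markers of hippocampal pyramidal and granule cells were bright, with summed signals of 10940 to 12230 in isolated and 11340 to 12170 in enriched pools. Of 9 thalamus and striatum markers 8 were higher, 1 of them with an unadjusted p under 0.05, and the median was 0.1145. Their summed signal was 1232 to 1338 in isolated and 1335 to 1448 in enriched pools, ranges that barely overlap, with 0 of the markers near 0 (lowest mean signal 69.0). Prkcd, a kinase abundant in thalamus, had 0.16 (SE 0.0583), and Pde10a, a phosphodiesterase of striatum, 0.15 (SE 0.0727). The list is not particular to these regions. Its highest member, Calb2 at 0.16, was also listed under interneuron markers and neurogenesis genes. Prkcd and Pde10a were also listed under cAMP and calcium signalling. The part of these markers in the higher genes above was not tested. Of 16 microglia markers 14 were lower, but the median was 0.1369 after PBS and -0.3391 after KA. The summed signal of those ranged from 2084 to 3362 in isolated and from 1965 to 3105 in enriched pools. Choroid plexus markers, 6 in number, summed to 1148 to 4278 in isolated and 1121 to 1779 in enriched pools. The highest sum was that of PBS_isolated replicate 1, where Ttr, the choroid plexus transthyretin, read 2719 against 87.2 to 377.3 in the other isolated pools. Without that pool the isolated sums ran from 1148 to 1436. Gfap, the astrocyte filament protein, had medians of 2097 and 1919 and a difference of -0.14 (SE 0.0941; limma adjusted p = 0.879).

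The log2 ratio of 3 prime to 5 prime beta-actin signal, a sign of RNA integrity, was 0.470 ± 0.113 in isolated and 0.6 ± 0.134 in enriched pools (SD, n = 6; exact permutation p = 0.11 within treatments, two-sided, smallest possible 0.005). With that ratio as a covariate Anp32a alone passed. Array medians averaged 71.9 and 72.9 (exact permutation p = 0.1). KA_enriched replicate 3 stood apart, with the lowest mean correlation with other arrays (0.9772, against 0.9817 to 0.9864) and the highest 3 prime to 5 prime ratios. Without it Anp32a alone passed, and 63 of 9520 probe sets had no overlap, 28 higher and 35 lower. That count cannot be read against the 29 of 9520 with all pools, since fewer pools are easier to separate. All 29 above were among them, but leaving out a pool cannot create overlap.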

How the data were processed

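Total RNA of 12 hippocampal pools was hybridised to 1 single-colour oligonucleotide array each, and n counts pools. The deposited values are signal intensity on a linear scale. From the values, the authors had scaled each array to a mean of 150 after trimming 2% at both ends. How probes were summarised is not stated in the sources used here. Array medians lay between 70.06 and 74.1, and the deposited intensity was used without further normalization. The number of arrays limits the precision.

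After removal of 57 control probe sets, signals were converted to log2(signal + 17), 17 being the rounded 20th percentile of the table. The brightest 60% of 15866 probe sets by mean over all samples were tested, 9520 in all. The annotation gave 1 symbol for 12783 probe sets and several for 312, and 2771 were unlisted. By Entrez ID 12754 were matched to a RefSeq table, which changed 0 symbols, and 35 kept the older symbol.

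The housing difference came from limma 3.58.1 under R 4.3.3 (lmFit, eBayes; 13.1 degrees of freedom), from 1 model with a mean per group, as the average of the enriched minus isolated differences after PBS and after KA. Two-sided p-values were Benjamini-Hochberg adjusted across all 9520 probe sets, and an adjusted p under 0.05 passed. The values of every pool were compared to find probe sets without overlap between housings. For lists, the brightest probe set of a gene was used. The members and the 38 lists were chosen with earlier results of these data known. Up to 12 higher and 12 lower genes without overlap were named by smallest p, and up to 3 members per list described.

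Alternatives changed the scaling, the pseudocount, the filter, the model terms and the pools included, and the closing section gives their effect. Same-numbered pools of both housings did not vary together in every pair (correlations from -0.00757 to 0.0791), so replicate numbers were not taken as pairs. The steps were tested on simulated data.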

Additional observations from a re-analysis of the deposited data

Results flagged for a closer look

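Within the 6 isolated or 6 enriched pools, 17 of 168 groups examined held a pool far from the other 5 by Dixon's criterion. Chance gives about 1 in 20 for values of 1 normal population. These groups mix PBS and KA pools, share arrays, and mostly belong to genes chosen from this comparison. That rate therefore does not apply to them. Among genes without overlap, Cks1b read 47.8 in PBS_isolated replicate 1 (others 60.8 to 65.5) and Pkp2 90.36 in PBS_isolated replicate 2 (others 132.5 to 150.6). Sorl1 read 319.4 in KA_isolated replicate 3 (others 358.2 to 379.6), and Psmb5 1059 in KA_isolated replicate 1 (others 1005 to 1023). In enriched pools, Stk39 read 164.8 in PBS_enriched replicate 1 (others 136.4 to 144.5) and Raver1 30.73 in PBS_enriched replicate 2 (others 41.31 to 44.86). Mgst3 read 1099 in KA_enriched replicate 2 (others 1259 to 1306), and Trim9 177.2 in KA_enriched replicate 3 (others 196.6 to 207.5). Fos, not tested, read 36.69 in PBS_enriched replicate 1 (others 67.16 to 73.61).

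Among list members, isolated pools that stood apart were Ntf3 at 74.95 in PBS_isolated replicate 1, Hibch at 73.53 in PBS_isolated replicate 3, Rpl37a at 2266 in KA_isolated replicate 1 and Psme1 at 255.5 in KA_isolated replicate 2. Enriched ones were Gabra5 at 493.6 in KA_enriched replicate 1, Ndufs8 at 276.2 in KA_enriched replicate 2, and Fkbp4 at 412.7 and Gad2 at 117.8 in KA_enriched replicate 3. The sources of these values were not tested.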

How the results depend on the processing

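The number of probe sets past the threshold, 2 as reported, was 1 with equal array medians, a pseudocount of 4, array weights, the beta-actin ratio as a covariate, or the replicate number as a block, and 0 without a treatment term (limma). With no filter on low values it was again 2, but Egr1 was not among them: Anp32a passed with an unnamed dim probe set that was higher in enriched rats. The count ran from 1 to 3 when single pools were left out. Anp32a passed in 23 of 24 alternatives, with log2 differences from -1.04 to -0.83 and adjusted p-values from 0.000353 to 0.53, and was lost without the treatment term. Egr1 passed in 6 of 24 (0.41 to 0.48, adjusted p from 0.00987 to 0.491). Arc passed in 2 of 24, with the intensity trend and without KA_enriched replicate 1 (adjusted p from 0.0229 to 0.607). Fos passed only without PBS_enriched replicate 1, its low enriched pool at 36.69 (others 67.16 to 73.61). Leaving that pool out both brought Fos over the filter on low values and widened its housing difference. With all pools its mean log2 was 5.64 in isolated and 6.34 in enriched pools (lowest mean tested 5.997). With no filter and all pools kept, Fos was tested and did not pass. Its single pass is therefore no independent support. Probe sets without overlap numbered 53 of 15866 with no filter on low values and 18 of 6346 in the brightest 40%, against 29 of 9520 (0.305%) as reported. The first 2 counts thus moved along with the number tested. With single pools left out there were 39 to 82 of 9520. The count was 82 without PBS_isolated replicate 3 and 68 without KA_enriched replicate 1. Leaving out a pool cannot create overlap, so apart from the filter on low values these counts could only rise. That 28 or 29 of the 29 were among them was therefore fixed in advance, and a missing one had fallen below the filter. The replicate block changed no other call. The interaction gave 0 with each pool left out (limma), the correlation between treatments ran from -0.0290 to 0.1194, and the beta-actin difference from 0.0784 to 0.172. Of 2051 gene values under alternatives, 1 turned its sign, Grm5 at 0.0437 with the beta-actin covariate against -0.18, and 19 no longer passed. Most of these genes were chosen by small p or lack of overlap in this same comparison. Some changes of model also leave the difference itself as it was. The kept signs are therefore no independent support. A list median counted as moved only if it shifted by more than its standard error, estimated by leaving out single pools. By that rule 8 of 528 list medians moved. The turns of sign given above for axon guidance, cAMP and calcium signalling, neuropeptide and neurogenesis genes were not counted as moved, so the 8 understate how unsteady the signs were. The causes were not tested, and 3 pools a group limit what can pass.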
